A study of Mus musculus with 43 samples.

Results

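The oligodendrocyte lineage genes described here are 30 genes of the 56980 in the count table, chosen as the rows whose gene name is on a fixed list. They fall into 13 genes of the precursor stages and 17 genes of myelin and of mature oligodendrocytes. Oligodendrocytes are the glial cells that wrap axons of the brain in myelin. They arise from dividing precursor cells that carry the PDGF receptor alpha (Pdgfra) and the NG2 proteoglycan (Cspg4) and divide in response to platelet-derived growth factor. The transcription factors OLIG1, OLIG2, SOX10 and NKX2-2 set and hold the fate. A precursor that leaves the cell cycle passes through a short premyelinating state marked by Gpr17, Bcas1 and Enpp6, and then, under the factor MYRF, switches on the genes of myelin. In the mouse cortex precursors appear around birth and myelin follows in the postnatal weeks.

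The RNA was not taken from sorted oligodendrocytes. The libraries hold GFP+ cells, labelled as layer 2/3 (L2/3) excitatory neurons, which were sorted from the somatosensory cortex of C57BL/6JRccHsd mice after in utero electroporation of a GFP plasmid under the CAG promoter, a promoter active in most cell types. The 43 libraries form 13 groups, each of 1 sex. At E19 there were 4 female and 4 male libraries each of WT, of Cux1 KO (Cux1∆C/∆C, a germline allele) and of Cux2 KO (Cux2-/-, also germline). At P4 there were 3 female and 3 male WT libraries, 3 female and 3 male Cux2 KO libraries and 2 male Cux1 KO libraries. At P7 there were 2 female and 3 male WT libraries. The Cux1 KO cells at P4 were of another kind than those at E19: they came from mice with a floxed and a deleted allele (Cux1f/∆23) electroporated with pCALNL-GFP and pCAG-iCre, so only electroporated cells lost the gene and the plasmids differed from those of WT. E19 libraries were sequenced in 1 round and P4 and P7 libraries in another, so that E19 and the postnatal stages cannot be told apart from the round. Nothing states that every library is a separate animal, and p-values measure only the spread between these samples.

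The E19 libraries held 13321095 to 20715732 counts each, those of P4 19499125 to 60559585 and those of P7 15312029 to 27633827. The Cux1 KO libraries at P4 stood apart, with 17049 and 19115 genes detected against 20844 to 23736 in the other P4 libraries. Markers of L2/3 neurons were present in every library, but the summed level of 10 of them in WT was 4132 to 5785 CPM (read counts scaled to a common library total) at E19, 779 to 1411 at P4 and 538 to 678 at P7. The summed level of 8 markers of astrocytes and radial glia was 1527 to 2251, 3465 to 6430 and 8595 to 12957 CPM at the same stages. The targeted genes are a weak check of the labels, since counts per gene do not resolve the deleted part: Cux1 stood at 288 to 378 CPM in Cux1 KO and 312 to 506 in WT at E19, and at 83.2 and 168 CPM in Cux1 KO and 88.1 to 157 in WT males at P4. Cux2 stood at 267 to 417 CPM in Cux2 KO and 332 to 517 in WT at E19, and at 29.6 to 60.5 and 28.1 to 46.4 CPM at P4.

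All levels below are CPM after TMM scaling, and differences are log2 fold changes (log2FC) from edgeR's quasi-likelihood test with the FDR (Benjamini-Hochberg adjusted p over all genes tested). A gene was called at an FDR under 0.05 with a log2FC beyond 0.5 at E19 and beyond 1 at P4, at P7 and between stages. In bulk samples, fewer cells of a type and less RNA per cell cannot be told apart.

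In WT libraries at E19 a larger share of the precursor genes than of the myelin genes was detected, though bulk RNA does not show which cells held them. Of the 13 precursor genes, 11 had more than 3 counts in every WT library at E19, against 8 of the 17 myelin genes, and by P7 these numbers were 13 and 15. Per kilobase of exon, the highest members at E19 were Olig1 among the transcription factors at a mean of 125 CPM per kb, Sirt2 among the myelin genes at 22.0, Pdgfra among the precursor genes at 11.6 and Gpr17 among the committed precursor genes at 4.97. Sirt2 encodes a deacetylase that neurons and other cells express as well. By P4 the leading members were Olig1 at 178, Cnp at 84.3, Lhfpl3 at 54.9 and Bcas1 at 22.1 CPM per kb, and by P7 they were Olig1 at 247, Cnp at 235, Lhfpl3 at 69.9 and Bcas1 at 56.5.

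The transcription factors differed in how much they moved. Olig1 (chr16:91066660-91068821 in GRCm39, plus strand) and its neighbour Olig2 (chr16:91019435-91025567), the basic helix-loop-helix factors that specify the lineage, lie 41093 bases apart. Olig1 had a median of 252 CPM in 8 WT libraries at E19 (231 to 366), 369 in 6 libraries at P4 (228 to 521) and 524 in 5 libraries at P7 (303 to 758). Olig2 had medians of 123 (109 to 157), 162 (94.3 to 207) and 197 (125 to 220.3) CPM. The ranges of both genes overlapped between neighbouring stages, and neither was called between E19 and P4, where the log2FC was 0.51 ± 0.14 (SE) with an FDR of 0.00504 for Olig1 and 0.36 ± 0.14 with an FDR of 0.0269 for Olig2. Sox10, the factor that keeps lineage cells on course and drives myelin genes with MYRF, rose from a median of 24.3 CPM (15.8 to 38.4) to 69.7 (27.8 to 109), with a log2FC of 1.46 ± 0.25 and an FDR of 9.18e-05. Nkx2-2, a homeodomain factor that promotes differentiation of precursors, was low at E19 at 0.6 to 2.61 CPM and reached 10.6 to 42.7 CPM at P4, with a log2FC of 4.32 ± 0.32. No transcription factor was called between P4 and P7, where Sox10 had medians of 69.7 and 146 CPM and a log2FC of 0.92 ± 0.33 with an FDR of 0.126.

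Of the 6 genes of dividing precursors, Pdgfra, Lhfpl3, C1ql1 and Neu4 rose from E19 to P4, and Cspg4 and Tnr were not called. Pdgfra, the growth factor receptor that defines these cells, had a median of 142 CPM at E19 (94.2 to 197), 447 at P4 (184 to 805) and 506 at P7 (221 to 917). Its log2FC was 1.70 ± 0.21 from E19 to P4 (FDR 3.88e-06) and 0.34 ± 0.41 from P4 to P7 (FDR 0.706), so the second step lay within the spread between libraries. Cspg4, which mural cells of vessels use too, had medians of 24.6 (16.7 to 36), 46.7 (19.5 to 69.6) and 72.9 (28.5 to 115) CPM and was called in neither step, the first at a log2FC of 0.82 ± 0.22 below the fold threshold. Lhfpl3, a tetraspan membrane protein gene used as a precursor marker, rose from a median of 15.5 CPM (7.19 to 20.9) to 184 (68 to 255), a log2FC of 3.59 ± 0.28. C1ql1, encoding a secreted C1q-like protein, rose with a log2FC of 2.64 ± 0.22 and Neu4, encoding a sialidase, with 6.11 ± 0.67. Neu4 was at most 1.06 CPM in WT at E19, 3.82 to 38.3 CPM at P4 and 50.0 to 101 CPM at P7, and it rose again from P4 to P7 (log2FC 1.94 ± 0.43, FDR 0.0277) without overlap. Tnr, the matrix protein tenascin-R that some interneurons also make, had medians of 40.4 CPM at E19 and 33.6 at P4 (log2FC -0.44 ± 0.30, FDR 0.207).

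Of the committed precursor genes, Enpp6 and Bcas1 were called higher at both steps and Gpr17 at the first. Enpp6, a choline phosphodiesterase gene that is switched on in newly forming oligodendrocytes, was at 0 to 0.286 CPM in WT libraries at E19. At P4 it stood at 79.7, 58.3 and 9.77 CPM in females and at 131, 127 and 127 CPM in males, and at P7 at 350.3 and 387 CPM in females and 296, 254 and 339 CPM in males. Every library of a later stage was above every library of the earlier one, and Enpp6 was called at both steps (log2FC 9.99 ± 0.61, FDR 3.03e-09, a fitted value against a group near 0, and 1.98 ± 0.47, FDR 0.0363). Bcas1, which marks early myelinating cells, had medians of 12.4 (7.53 to 18.1), 90.3 (29.9 to 119) and 203 (151 to 274) CPM and was called at both steps too (log2FC 2.70 ± 0.21 and 1.38 ± 0.30, the second with an FDR of 0.0275). Gpr17, encoding a receptor that holds cells in the premyelinating state, had medians of 22.9 (14.4 to 45), 121 (22.2 to 146) and 237 (128 to 319.8) CPM. It was called from E19 to P4 at 1.93 ± 0.29 and not from P4 to P7, where the log2FC was 1.23 ± 0.41 with an FDR of 0.105.

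**Figure D1:**
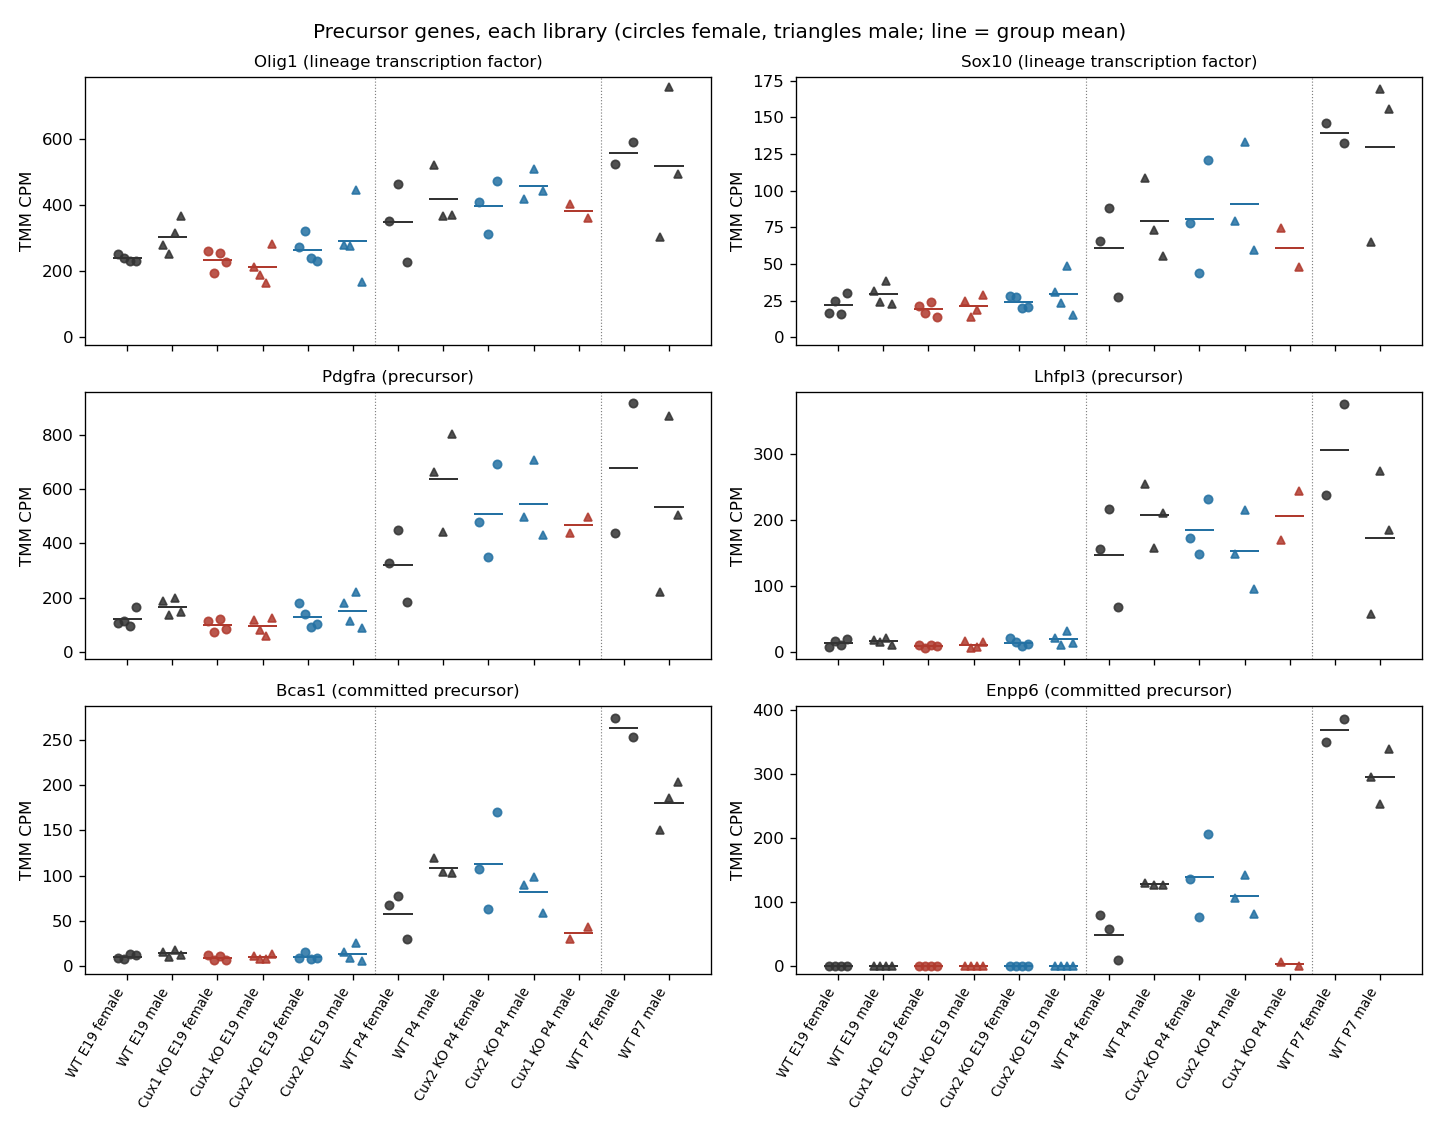
Levels in CPM (y axis) of 6 precursor genes in each of the 43 libraries, by group along the x axis; circles are female and triangles male libraries, lines are group means, and WT is black, Cux1 KO red and Cux2 KO blue. Enpp6 is near 0 in every E19 library, at 9.77 to 131 CPM in WT at P4 and at 7.38 and 0.0927 CPM in Cux1 KO at P4, whereas Pdgfra and Lhfpl3 of the Cux1 KO libraries at P4 lie among the WT points.

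Most myelin genes were low at E19 and rose by P4, and 7 of them rose again by P7. Mbp, the myelin basic protein gene, whose locus also makes golli transcripts in neurons, stood at 10.7 to 17.6 CPM in the 8 WT libraries at E19. At P4 it stood at 261, 227 and 33.3 CPM in females and 600.2, 415 and 343 CPM in males, and at P7 at 1199 and 1202 CPM in females and 1030.0, 1124 and 1255 CPM in males. The 3 stages did not overlap, and the log2FC was 4.31 ± 0.41 (FDR 2.97e-07) and then 1.99 ± 0.46 (FDR 0.0337). Cnp, the gene of the cytoplasmic myelin enzyme CNPase, had medians of 33 (22.9 to 36.7), 360.0 (127 to 476) and 963 (815 to 1056) CPM, with a log2FC of 3.39 ± 0.19 (FDR 1.38e-09) and 1.50 ± 0.24 (FDR 0.00966), again without overlap. Mag, encoding the adhesion protein of the innermost myelin layer, had medians of 0.67 (0 to 0.931), 24.1 (1.91 to 52.6) and 99.8 (87 to 129) CPM. Cldn11, the tight junction claudin of myelin, had medians of 0.16, 32.9 and 136 CPM, and Myrf, the factor that switches myelin genes on, of 1.2, 12.4 and 30.0 CPM. Both Mag and Cldn11 were called at each step, and Myrf at the first (log2FC 2.84 ± 0.45) but not at the second (1.47 ± 0.42, FDR 0.0677).

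The genes of the latest steps of myelination stayed low. Mobp, a structural protein gene of compact myelin, was at 0 to 0.124 CPM at E19 with 2 counts over all 8 WT libraries, at 0 to 5.29 CPM at P4 and at 2.95 to 12 CPM at P7. With counts pooled over the libraries of a stage and divided by their pooled scaled size, P4 was 82.8 times E19, with a 95% counting interval of 22.7 to 686. The same ratio for Aspa, encoding the enzyme that splits N-acetylaspartate in mature oligodendrocytes, was 79.4 (21.8 to 658). Opalin, a late membrane protein gene, had no count in WT at E19 and reached at most 1.06 CPM at P7. Mog, encoding a protein of the outer myelin surface, took a different course. It stood at a median of 7.48 CPM at E19 (6.42 to 12), at 2.22 at P4 (0.533 to 7.05) and at 16.4 at P7 (9.89 to 19.3). It was the only member called lower at P4 than at E19 (log2FC -1.75 ± 0.38, FDR 0.000947) and was called higher at P7 than at P4 (2.66 ± 0.52, FDR 0.018). Mog overlaps Zfp57 on the opposite strand. In all, 8 members overlap a protein-coding gene in this way: Mog, Gpr17, Cnp, Sirt2, Opalin, Nkx6-2, Ermn and Aspa. Whether the counting used strand is not stated, so their counts may include reads of the overlapping genes. In males alone the Mog difference between E19 and P4 was -1.02 and was not called.

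**Figure D2:**
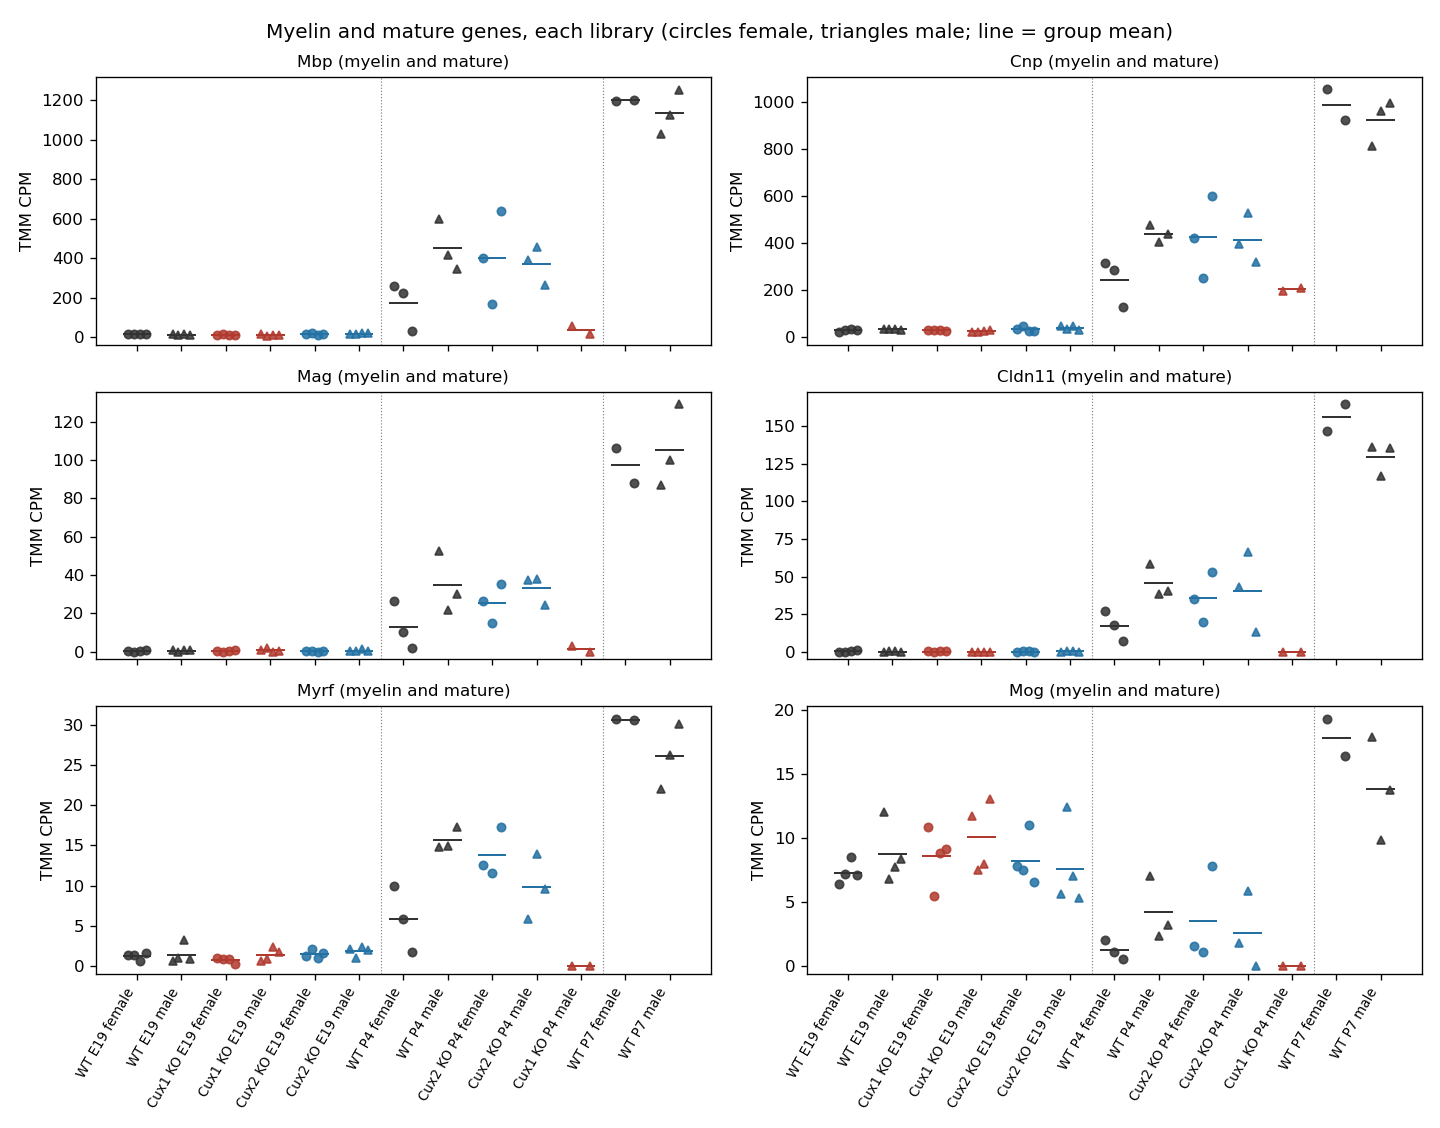
Levels in CPM (y axis) of 6 myelin genes in each of the 43 libraries, drawn as for the precursor genes. Mbp and Cnp climb at each stage in WT to 1030.0 to 1255 and 815 to 1056 CPM at P7, and Mog is the gene whose P4 libraries lie below most of its E19 libraries.

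Counted together from E19 to P4, 9 of the 13 precursor genes and 13 of the 15 myelin genes tested were called higher and 1 myelin gene, Mog, lower, where 22.6% of all genes tested were called higher and 23.3% lower. The median log2FC was 1.93 over the precursor genes, 3.39 over the myelin genes and 0.04 over all genes. Of these 28 members, 8 (Neu4, Enpp6, Mobp, Cldn11, Mal, Gjc3, Fa2h and Aspa) passed the filter on low counts only through their P4 level, so they could hardly fail to differ. Among the other 20 members, 14 were called higher. From P4 to P7 all 30 members could be tested, and 3 precursor genes (Neu4, Bcas1 and Enpp6) and 7 myelin genes (Mbp, Mag, Mog, Cnp, Cldn11, Sirt2 and Fa2h) were called higher and none lower, against 1.42% and 0.63% of all genes. The medians of this second step were 0.92 over the precursor genes, 1.99 over the myelin genes and 0.02 over all genes. Without the WT P4 female library 3, in which most members were lowest, 12 members were called in that step, and without WT P4 female 2, either P7 female or P7 male 2 only 4 were. Within females alone or males alone none of the 30 was called at an FDR under 0.05.

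**Figure D3:**
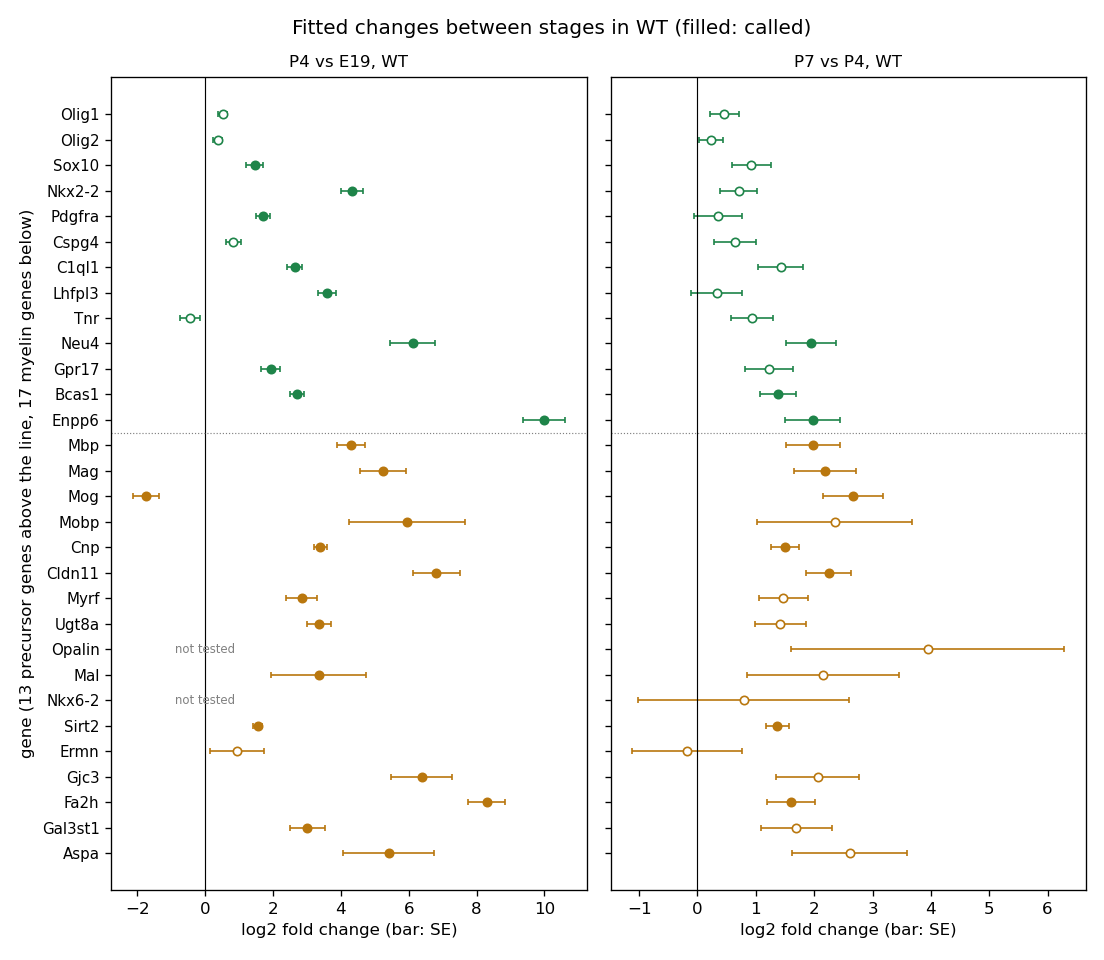
Log2 fold change between WT stages (x axis) with its SE (bars) for each member tested, P4 against E19 and P7 against P4; green marks precursor genes, orange myelin genes, and filled points were called. Nearly all points of the first step lie right of 0, with Mog at -1.75 the called exception, and in the second step 10 of the 30 are filled.

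Other genes of the lineage moved along. Of 25 further genes, among them Bmp4 and Tcf7l2, 20 were called higher at P4 than at E19 with a median log2FC of 1.81. Tmem163, Bmp4 and Trf were among those called higher at P7 than at P4, at 1.42, 1.64 and 1.67. Of 12 genes of signals that act on the lineage, 10 were tested from E19 to P4, and 2 were called higher and 2 lower, shares near those of all genes (22.6% and 23.3%). Bdnf (2.80) and Igf1 (1.89) were called higher and Pdgfc (-1.04) and Lingo1 (-2.66), an inhibitor of differentiation, lower at P4 than at E19, and Nrg1 (-1.14) was called lower at P7 than at P4. Markers of other cell types moved over the same steps: in WT the summed level of 8 microglial markers was 41.4 to 70.9 CPM at E19, 38.6 to 65.6 at P4 and 196 to 1041 at P7, of 6 mural markers 23.0 to 62.7, 112 to 425 and 203 to 1040, and of 6 endothelial markers 2.67 to 36.2, 54.5 to 214 and 56.3 to 254. Their part in the results was not tested.

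Both Cux1 KO libraries at P4 lay below every WT male in the 3 committed precursor genes and in 10 of 17 myelin genes. Of all genes tested, 23.1% were separated in this way. Among the other precursor genes Pdgfra, Lhfpl3, C1ql1, Neu4, Olig1 and Sox10 overlapped WT males, and Olig2, Nkx2-2, Cspg4 and Tnr lay below them. No member passed the FDR threshold in this comparison. All values of this comparison are those of 2 Cux1 KO males against 3 WT males. Enpp6 stood at 7.38 and 0.0927 CPM against 131, 127 and 127 in WT, Mbp at 55.4 and 14.0 CPM against 600.2, 415 and 343, and Mag at 2.81 and 0.0463 CPM against 52.6, 21.7 and 30.0. In each of these genes both KO libraries lay below all WT males, with KO library 2 the lower. The library WT P4 female 3 lay between the 2 KO libraries in Mbp (33.3 CPM) and Mag (1.91 CPM). Cldn11 had 1 count over both KO libraries and 58.1, 38.7 and 40.4 CPM in WT, a ratio of 2902 with a 95% counting interval of 521 to 114646. Myrf had 1 count in each KO library and 14.8, 15 and 17.3 CPM in WT, a ratio of 502 (139 to 4144). Mog had no count in either and was at least 88.4-fold higher in WT, where it stood at 7.05, 2.35 and 3.21 CPM, and Mobp, also without a count in the KO, stood at 1.31, 5.29 and 0 CPM in WT. Fa2h, which makes the hydroxylated fatty acids of myelin lipids, stood at 0.0502 and 1.25 CPM against 42.2, 25.8 and 66.1.

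A smaller difference was seen in genes that stayed well detected. Of these, Cnp, Sirt2 and Gpr17 overlap a protein-coding gene on the opposite strand. Cnp stood at 197 and 210.4 CPM against 476, 405 and 438 in WT males (log2FC -1.12 ± 0.15), Sirt2 at 199.7 and 249 against 477, 489 and 377 (-1.01 ± 0.20), Gpr17 at 40.4 and 41.8 against 146, 129 and 141 (-1.77 ± 0.17) and Bcas1 at 30.6 and 43.4 against 119, 104 and 103 (-1.57 ± 0.24). These KO values also lay below the females of WT except WT P4 female 3, whose Gpr17 of 22.2, Bcas1 of 29.9, Cnp of 127 and Sirt2 of 189 CPM were as low or lower. Among the other precursor genes 4 also had both KO libraries below every WT male: Olig2 at 143 and 95.2 CPM against 207, 151 and 172 (log2FC -0.59 ± 0.25, FDR 0.291), Nkx2-2 at 27.57 and 16.6 against 42.7, 37.7 and 27.64 (-0.72 ± 0.38, FDR 0.332), Cspg4 at 32.1 and 36.9 against 56, 45 and 69.6 (-0.73 ± 0.27, FDR 0.224) and Tnr at 34.4 and 15.8 against 44.8, 39.9 and 53.6 (-0.89 ± 0.41, FDR 0.308). Of these Nkx2-2 was separated by less than 0.1 CPM. Pdgfra stood at 438 and 497 CPM against 664, 443 and 805 (log2FC -0.46 ± 0.28, FDR 0.411), Lhfpl3 at 169.5 and 243 against 255, 158 and 211 (-0.02 ± 0.28, FDR 0.977) and Olig1 at 404 and 361 against 521, 369 and 369.6 (-0.15 ± 0.22, FDR 0.76). The KO and WT libraries overlapped in Pdgfra and Lhfpl3. Olig1 changed the sign of its difference to 0.034 without WT P4 male 1. C1ql1 and Neu4, with log2FC of 0.45 and 0.28, were not lower. In Gal3st1, the sulfotransferase of myelin sulfatide, both KO libraries lay above every WT male, with 44.2 and 42.3 CPM against 31.2, 32.2 and 20.2. Over the 15 myelin genes tested, 11 had a negative log2FC and 4 a positive one, up to 1.73. The myelin genes were thus unequal: Ugt8a, which makes galactosylceramide, stood at 55.7 and 31.8 CPM against 83.6, 63.2 and 65.9, and Gjc3, a connexin gene, at 26.9 and 5.54 CPM against 63.7, 38.9 and 40.6.

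No member was called in the fit of these 5 libraries, nor was any of the 19601 genes tested (0% called). The smallest FDR among the members was 0.0764, shared by Gpr17, Bcas1, Cnp, Cldn11 and Myrf. At an unadjusted p under 0.05, 4021 genes differed, and 12 members were lower (Cspg4, Gpr17, Bcas1 and Enpp6, and Mbp, Mag, Mog, Cnp, Cldn11, Myrf, Sirt2 and Fa2h) with none higher, against 12.3% of all genes lower. Both KO libraries lay below every WT male in 7 of 13 precursor and 10 of 17 myelin genes, against 23.1% of all genes tested. The median log2FC was -0.59 over 13 precursor genes and -1.58 over 15 myelin genes tested, also with Mog and Mobp set at their bounds, and -0.18 over all genes. Of the 28 members tested, 8 (Enpp6, Mag, Mog, Mobp, Cldn11, Myrf, Ermn and Fa2h) had under 10 counts in at least 1 KO library, so that their place in these counts rests on their level in WT. Of the other 20, 6 were lower at an unadjusted p under 0.05 (3 precursor and 3 myelin genes), 11 had both KO libraries below every WT male, and the medians were -0.52 over 12 precursor and -0.86 over 8 myelin genes. The call depended on the tool and on the libraries that entered. DESeq2 called 11 members lower, those 12 without Cspg4, where 10.6% of genes were called lower and 4.55% higher. A fit of all P4 groups together, in which all groups share the estimate of spread, called 8 lower (Bcas1 with an FDR of 0.043, Enpp6 0.021, Mbp 0.020, Mag 0.041, Mog 0.033, Cldn11 0.00042, Myrf 0.00034 and Fa2h 0.0033), where 7.28% of genes were called lower and 3.69% higher. Of the 20 members with at least 10 counts in each KO library, DESeq2 called 5 and that fit 2. Without KO library 1 that fit called 6 members and without KO library 2 it called 4.

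**Figure D4:**
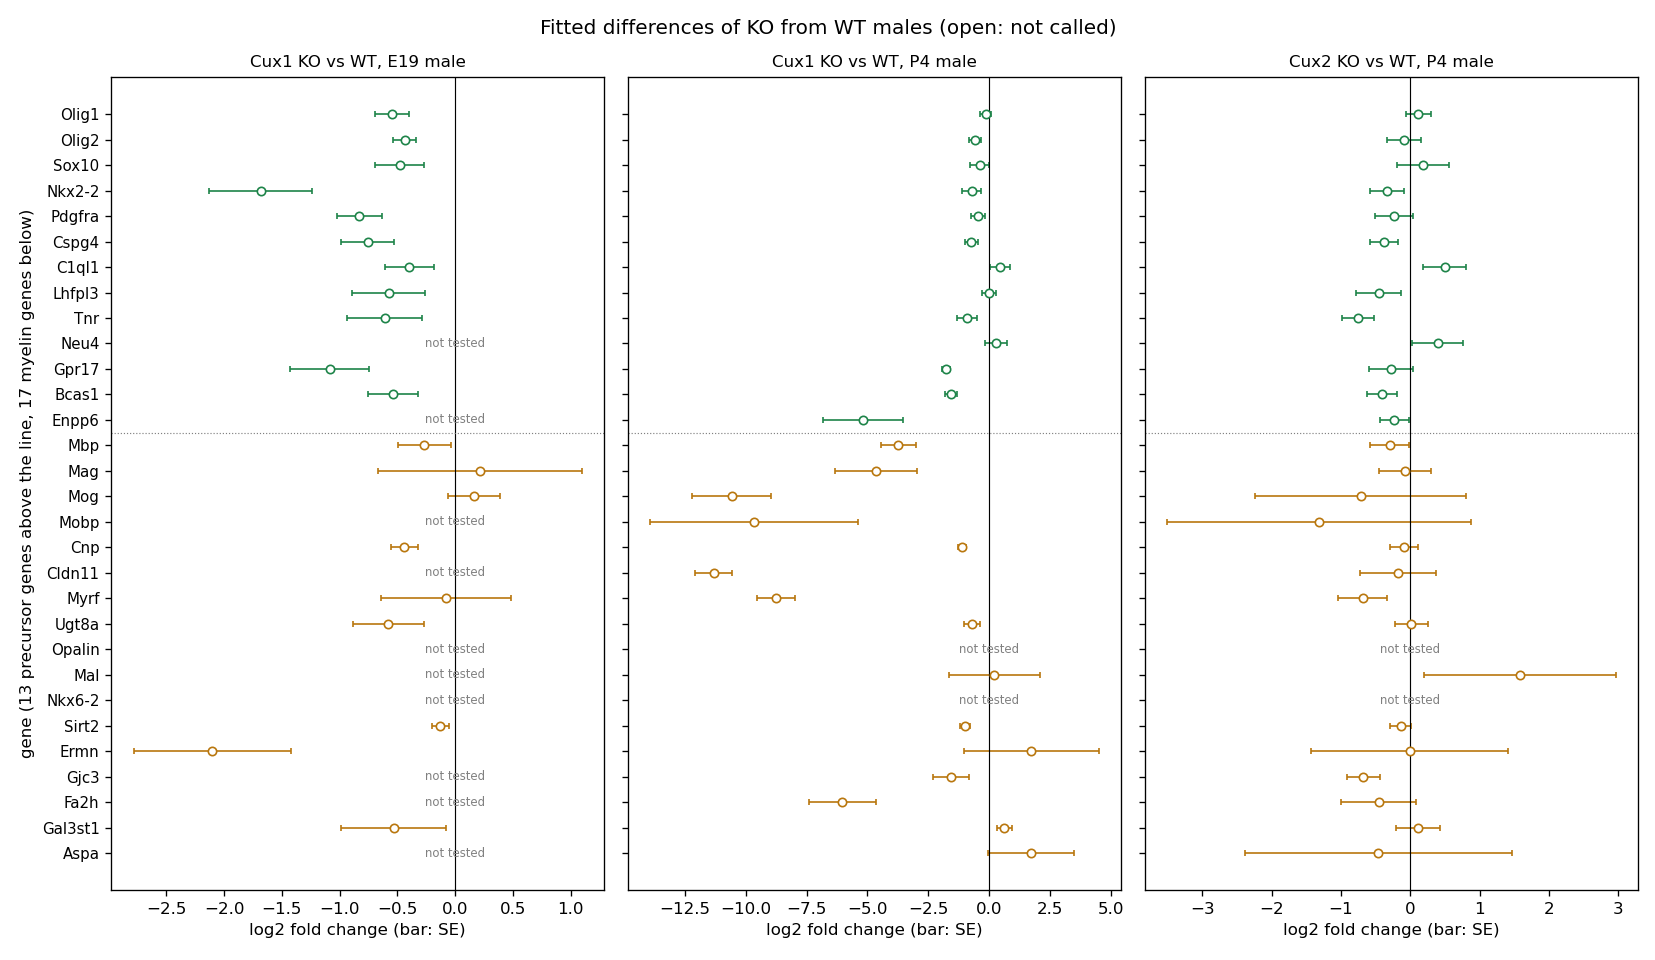
Log2 fold change of KO against WT (x axis) with its SE (bars) for each member tested, for Cux1 KO males at E19 and P4 and Cux2 KO males at P4; no point is filled, since none was called, and fitted values of groups with 3 or fewer counts (Cldn11, Myrf, Mog and Mobp in Cux1 KO at P4) depend on the prior count. Most myelin genes of Cux1 KO at P4 lie left of 0 with a median of -1.58, and most precursor genes of Cux1 KO at E19 lie slightly left of 0 with a median of -0.58.

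The balance of the 2 classes set the Cux1 KO libraries apart within P4. The summed level of the 17 myelin genes over that of the 13 precursor genes was 0.400 and 0.375 in the KO libraries and 0.507 to 0.898 in the other 12 libraries at P4, where E19 libraries of all genotypes ranged from 0.198 to 0.419 and WT libraries at P7 from 1.03 to 2.07. The precursor sums of 1543 and 1482 CPM lay below the 1736 to 2403 of WT males and within the 734 to 2528 of all other P4 libraries, whereas the myelin sums of 618 and 557 CPM lay below those of 11 of these 12. The remaining library, WT P4 female 3, had 387 CPM of myelin and 734 of precursor genes. Most of the myelin sum of the KO libraries came from Sirt2 (199.7 and 249 CPM) and Cnp (197 and 210.4). At E19 most of it in WT came from Sirt2 alone, at 107 to 134 CPM where the sum was 170 to 206. Sirt2 is expressed by other cells too, so the ratio of the sums is not a measure of the lineage alone. The ratio of Mbp to Pdgfra was 0.126 and 0.0281 in the KO, 0.181 in WT P4 female 3 and 0.426 to 0.937 in the other 11.

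Genes of other cell types differed in the same 2 libraries. The summed level of the 10 L2/3 neuron markers was 2017 and 2489 CPM in the Cux1 KO libraries against 779 to 1336 in WT males and 779 to 1623 in all other P4 libraries, and none of them was at 0. In Rbfox3, the gene of the neuronal antigen NeuN, the KO libraries stood at 105 and 120 CPM against 11.0, 17.7 and 16.1 in WT males. The 8 microglial markers summed to 13.5 and 14.2 CPM against 38.6 to 41.8 in WT males, with Trem2 at 0, the 6 endothelial markers to 0 and 30.7 against 105 to 214, with Tek and Emcn at 0, and the 6 mural markers to 0.251 and 56.0 against 249 to 425, with Kcnj8 at 0. The 4 markers of cycling cells summed to 234 and 684 CPM against 825 to 988, the 7 interneuron markers to 178 and 291 against 320 to 484, the 3 markers of intermediate progenitors to 71.6 and 104 against 155 to 225, with Eomes and Neurog2 at 0, and the 6 fibroblast markers to 4.29 and 15.0 against 12.2 to 43.3, with 4 of 6 at 0. The interneuron markers did not move together: at an unadjusted p under 0.05, 2 of the 7 were higher and 3 lower in the KO. The 8 markers of astrocytes and radial glia summed to 4667 and 7513 CPM against 3465 to 5027, and 6 immediate early and dissociation genes to 477 and 539 against 471 to 1020. The part of these in the result was not tested. The KO libraries also lost weakly expressed genes in general: of 6003 genes with a WT male mean of 1 to 10 CPM, the range of Mog and Mobp, 24.8% had 3 or fewer counts in both KO libraries, against 1.27% of 8508 genes at 10 to 100 CPM, the range of Cldn11 and Myrf, and 0 of 2478 genes at 100 to 1000 CPM, the range of Mbp, Cnp and Enpp6.

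Of 25 further genes of the lineage, 23 were tested and none was called. At an unadjusted p under 0.05, 9 were lower, where 12.3% of all genes were, and 1 (Plekhb1) higher, and their median log2FC was -0.76. Tcf7l2, a factor of the premyelinating stage, stood at 109 and 78.1 CPM in the KO against 220, 288 and 308 in WT males (-1.55 ± 0.25, FDR 0.0764), and Bmp4, which premyelinating cells secrete, at 0.0502 and 5.0 CPM against 58.8, 35.6 and 44.5 (-4.18 ± 1.59, FDR 0.236). Among the 12 signals Jag1, a Notch ligand, had a log2FC of -2.26 ± 0.29 (FDR 0.0764), and Pdgfa, the growth factor for the receptor PDGFRA, of 0.01 ± 0.48.

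Promoters are shown for 3 members that were low in Cux1 KO at P4 and rose together in WT (Enpp6, Cnp and Mag) and for Lhfpl3, which rose in WT and lay within the WT range in the KO, so that the sequences of both kinds can be read side by side. They were taken from the RefSeq promoter table of GRCm38.p6, which holds 22 of the 30 members, and placed in GRCm39 by a unique exact match, keeping the bases before the annotated start of the gene. Capitals mark the motifs searched. The Lhfpl3 stretch, chr5:22950802-22951051 on the plus strand, overlaps an exon of the antisense RNA gene A930003O13Rik; that of Enpp6 is chr8:47439672-47439918 (plus), that of Cnp chr11:100465515-100465729 (plus) and that of Mag chr7:30614475-30614597 (minus).
Lhfpl3: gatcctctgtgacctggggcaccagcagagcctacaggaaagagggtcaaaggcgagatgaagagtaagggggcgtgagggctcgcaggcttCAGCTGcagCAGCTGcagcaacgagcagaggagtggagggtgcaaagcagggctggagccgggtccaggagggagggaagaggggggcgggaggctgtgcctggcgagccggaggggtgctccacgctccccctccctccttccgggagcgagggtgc
Enpp6: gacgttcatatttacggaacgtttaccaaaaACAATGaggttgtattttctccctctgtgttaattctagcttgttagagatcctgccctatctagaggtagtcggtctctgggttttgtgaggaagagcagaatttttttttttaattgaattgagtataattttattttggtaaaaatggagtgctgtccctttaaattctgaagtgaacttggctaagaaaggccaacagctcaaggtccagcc
Cnp: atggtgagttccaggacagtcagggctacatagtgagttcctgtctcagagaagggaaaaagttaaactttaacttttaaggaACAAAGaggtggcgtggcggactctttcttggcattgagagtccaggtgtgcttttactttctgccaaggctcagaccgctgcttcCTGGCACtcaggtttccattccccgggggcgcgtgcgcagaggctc
Mag: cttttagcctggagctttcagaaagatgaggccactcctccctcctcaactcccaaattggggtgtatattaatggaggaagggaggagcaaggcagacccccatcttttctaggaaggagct
The motifs searched, on both strands of the 250 bases before the RefSeq start, were CTGGCAC and CTGGTAC for MYRF, ACAAAG and ACAATG for SOX factors, CAGCTG and CAGATG for OLIG factors, and ATCGAT and ATCAAT for CUX factors; no motif contains another. The Lhfpl3 window held CAGCTG at 158 and 149 bases before the start. The Enpp6 window held ACAATG at 219 bases, and the Cnp window ACAAAG at 167 and CTGGCAC at 81 bases. The Mag window held ACAAAG at 67 bases on the minus strand and CTGGCAC at 9 bases, both inside the annotated gene and so not in the stretch shown. Of all 32851 windows 5.93% held the MYRF letters, 25.2% the SOX, 25.5% the OLIG and 7.40% the CUX letters, and of the 22 member windows 3, 10, 6 and 2 did. The 2 windows with CUX letters were those of Mog and Sirt2. A match is a description of the letters and not a site.

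At E19, Cux1 KO males had lower values than WT males in many precursor genes, though no member was called. Pdgfra stood at 118, 82.1, 59.3 and 125 CPM in the KO against 186, 135, 197 and 148 in WT (log2FC -0.83 ± 0.20, FDR 0.216), Olig2 at 89.5, 101, 102 and 115 against 124, 134, 125 and 157 (-0.44 ± 0.10, FDR 0.216) and Nkx2-2 at 0.397, 0.306, 0.869 and 1.01 against 2.1, 1.25, 2.61 and 2.15 (-1.68 ± 0.45, FDR 0.246). In these 3 genes every KO library lay below every WT library, as did 1.74% of all genes tested. Olig1 stood at 213, 189.9, 165 and 283 CPM against 280.3, 252, 315 and 366 (-0.55 ± 0.15, FDR 0.263), with 1 KO library above WT libraries. All 11 precursor genes tested had negative values, 8 of them with an unadjusted p under 0.05, and of 9 myelin genes Cnp (-0.44 ± 0.12, FDR 0.26) and Ermn (-2.10 ± 0.68, FDR 0.311) did, where 4.63% of all genes were lower at that p and 1798 genes differed in either direction. The median log2FC was -0.58 over the precursor genes, -0.27 over the myelin genes and -0.01 over all genes. In all, 0.0979% of genes were called in this comparison. Olig1 and Pdgfra were called by DESeq2 (FDR 0.0442 and 0.00607), and these and Gpr17 by edgeR when no gene was removed for low counts (0.0336, 0.0056 and 0.0455). With both sexes in the edgeR fit none of these was called: Olig1 was at -0.28 (FDR 0.275), Pdgfra at -0.55 (0.132) and Gpr17 at -0.67 (0.243). With the replicate number as a block Olig1 was called (0.0405) and Pdgfra was not (0.0842). WT females were also below WT males at E19, with negative values in all 11 precursor genes tested (median -0.45, none called). The 8 microglial markers summed to 30.8 to 46.6 CPM in the KO and 52.6 to 70.9 in WT, 5 of the 7 tested were lower at an unadjusted p under 0.05, and their part in the result was not tested.

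In Cux1 KO females at E19 no member was called, where 0.0576% of genes were. Tnr (log2FC -0.62 ± 0.24, FDR 0.706) and Gal3st1 (-0.78 ± 0.34, FDR 0.708) were lower at an unadjusted p under 0.05, where 1194 genes in all had such a p, and the medians were -0.19 over the precursor and 0.02 over the myelin genes. Pdgfra stood at 115, 74.6, 119 and 83.8 CPM against 104, 115, 94.2 and 164, and Olig1 at 260.2, 196, 255 and 229 against 253, 240.2, 231 and 232, so that KO and WT overlapped. The difference between the sexes in the effect of Cux1 KO was not called for any member, nor for any of 18318 genes (0%). Its smallest p-values belonged to Olig2 (difference in log2FC 0.38 ± 0.13), Olig1 (0.53 ± 0.19), Cnp (0.47 ± 0.18) and C1ql1 (0.90 ± 0.34), each with an FDR of 0.962.

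Cux2 KO left every member uncalled at both stages. At E19 no member had an unadjusted p under 0.05 in either sex, where 806 genes did in females and 1376 in males, and where 0.0287% and 0.121% of genes were called. In females the smallest p-values belonged to Ermn (log2FC 0.54 ± 0.34) and Olig1 (0.17 ± 0.11), both with an FDR of 0.977, and in males to Ermn (-1.26 ± 0.61, FDR 0.643) and C1ql1 (-0.41 ± 0.21, FDR 0.685). At P4 no gene was called in either sex (0% of 19538 in females and 0% of 19720 in males), while 1443 and 1136 genes had an unadjusted p under 0.05. The paper, with DESeq2, reports differing genes in both sexes at P4, so the absence of calls in these fits cannot decide whether members differed. In P4 females all 13 precursor genes and 14 of 15 myelin genes tested had positive values, with medians of 0.50 and 1.15, where 51.8% of all genes had a positive value with a median of 0.02. Markers of some other cell types were higher in the same libraries, with none called: 6 mural markers summed to 357 to 399 CPM in Cux2 KO females and 112 to 175 in WT females (median log2FC 1.68), 8 microglial markers to 57.0 to 221 and 44.1 to 65.6 (1.26), and 6 endothelial markers to 66.0 to 193 and 54.5 to 66.8 (1.05), with none at 0 in either group. The median log2FC was 0.15 for astrocytes and radial glia. It was negative for fibroblasts (-2.37, 3 genes tested), intermediate progenitors (-0.96), interneurons (-0.50), immediate early and dissociation genes (-0.40), cycling cells (-0.27) and L2/3 neurons (-0.21), also with none called. Their part in the result was not tested. Enpp6 stood at 137, 76.9 and 207 CPM in Cux2 KO females against 79.7, 58.3 and 9.77 in WT (log2FC 1.51 ± 0.72, FDR 0.697), and Fa2h at 31.1, 18.8 and 41.3 against 18.5, 18.7 and 7.73 (1.02 ± 0.43, FDR 0.675). The WT library at the low end was female 3 in both. In P4 males Tnr (log2FC -0.76 ± 0.23, FDR 0.594) and Gjc3 (-0.68 ± 0.24, FDR 0.729) were lower at an unadjusted p under 0.05, and both changed sign, to 0.074 and 0.52, when the sexes were fitted together. Mbp stood at 392, 459 and 264 CPM in Cux2 KO males against 600.2, 415 and 343 in WT males, and Myrf at 5.89, 14 and 9.57 against 14.8, 15 and 17.3. The test of a difference between the sexes in the effect of Cux2 KO called no gene at E19 (0% of 18356) or P4 (0% of 21878). At P4 the difference, female minus male, was positive for 28 of 30 members and 51.7% of all genes, with medians of 0.78 over the precursor and 1.06 over the myelin genes and 0.03 over all genes. This count and that of the P4 females both include WT P4 female 3. Its precursor genes summed to 734 CPM, against 1404 and 1859 in the other WT females. Its myelin genes summed to 387 CPM, against 1082 and 943. The part of this library in the signs was not tested. Ermn at E19 (1.80 ± 0.74, FDR 0.979) and Tnr, Myrf, Bcas1 and Opalin at P4 (1.67, 1.92, 1.36 and -8.87, smallest FDR 0.645) had an unadjusted p under 0.05, Opalin on at most 0.771 CPM.

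Between WT females and males no member was called at any stage. At E19 females were lower in Gpr17 (log2FC -0.88 ± 0.25), Olig1 (-0.36 ± 0.11), C1ql1 (-0.81 ± 0.24), Pdgfra (-0.50 ± 0.16) and Olig2 (-0.23 ± 0.10) at an unadjusted p under 0.05, each with an FDR of 0.992, among 637 such genes and 0.0461% called. At P4 females were lower at that p in Pdgfra, Tnr, Bcas1, Cnp, Cldn11, Sirt2 and Fa2h (log2FC -0.72 to -1.57, each with an FDR of 0.675), among 1398 such genes and 0% called. Every female library lay below every male library in 4 precursor and 9 myelin genes, against 7.24% of all genes tested. WT P4 female 3 took a large part in this range: its precursor genes summed to 734 CPM against 1404 and 1859 in the other females and 1736 to 2403 in males, and its Mbp of 33.3 CPM stood against 261 and 227 in the other females. The 6 endothelial markers summed to 54.5 to 66.8 CPM in females and 105 to 214 in males, and the 7 interneuron markers to 527 to 1023 and 320 to 484, and their part in the result was not tested. At P7, where 0.0247% of genes were called and 883 had an unadjusted p under 0.05, Bcas1 was at 274 and 253 CPM in females against 151, 185 and 203 in males (log2FC 0.55 ± 0.16) and Mobp at 5.08 and 2.95 against 10.1, 8.56 and 12 (-1.36 ± 0.38), each with an FDR of 1. Mbp, with 1199 and 1202 CPM in females, lay within the male range of 1030.0 to 1255.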

How the data were processed

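GFP+ cells of 43 samples were profiled by single-end bulk RNA-seq with a low-input kit. The authors aligned reads to GRCm39 with hisat2 (Y chromosome masked for females, its pseudoautosomal part for males), removed reads duplicated above a ceiling and counted primary alignments per Ensembl gene with featureCounts; no molecular identifiers were used and the strand setting is not stated in the sources used here. They deposited raw counts per gene, the unit of all values used. Groups come from the sample titles. In R 4.3.3, counts of each pair of groups were filtered (filterByExpr), TMM scaled and tested with edgeR 4.0.16 (quasi-likelihood, Benjamini-Hochberg over all genes tested), with sex as a covariate between stages and an interaction term between sexes; limma 3.58.1 was loaded with it and DESeq2 1.42.0 was an alternative. CPM use TMM factors over all 43 libraries. Ratios against groups with 1 to 3 counts carry an exact 95% counting interval; "at least" uses a floor of 3 counts over the group, and both cover counting error only. The depth limits genes under about that floor.

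The members, their classes and the other gene lists were chosen with earlier results of these data known. Named were Olig1, Olig2, Sox10, Pdgfra, Cspg4, Mbp, Cnp, Mag, Mog and Mobp, every member called, the member of smallest p per class in each comparison, the highest per role and length in WT, and others for small counts or ranges. Values of 1 gene on the other lists are not reported here. Scripts were tested on simulated data. Alternatives were another scaling and tool, no filter, adjusted p alone, each library left out, the replicate number as a block, sexes apart or together and all groups of a stage in 1 fit.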

Additional observations from a re-analysis of the deposited data

Results flagged for a closer look

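Among the 10 genes always named, 55 combinations of gene and group of 4 libraries were tested for a single library far from the rest, and 2 stood apart by Dixon's criterion, which chance meets in about 1 of 20 groups. Mag was at 0 CPM in WT E19 female 2, where the nearest of the other 3 libraries was at 0.636 CPM, a gap of 0.935 of the whole range. Mobp was at 0.227 CPM in Cux1 KO E19 male 1 and at 0 in the other 3 libraries, a gap of 1 of the range. Both rest on a few counts.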

How the results depend on the processing

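Counts of members called moved by more than 1.5 times, or away from 0, in 3 comparisons. For Cux1 KO males at E19, 0 became 2 with DESeq2, 3 without the filter on low counts and 1 with the replicate block. For Cux1 KO males at P4, 0 became 11 with DESeq2, 8 in the fit of all groups of the stage, and, in alternatives chosen after the data were seen, 2 (Cldn11 and Myrf) against Cux2 KO males and 6 and 4 in the fit of all groups without KO replicate 1 and 2. Leaving out 1 library gave 0 to 6, with 6 only without Cux1 KO P4 male replicate 2, which leaves 1 KO library whose spread is assumed equal to that of WT. For P7 against P4, 10 became 17 with DESeq2, 7 with the replicate block and 0 in females or males alone, and leaving out 1 library gave 4 to 12: 5 without WT P4 female 1, WT P4 male 2 or WT P7 male 3, 4 without WT P4 female 2, WT P7 female 1, WT P7 female 2 or WT P7 male 2, and 12 without WT P4 female 3. P4 against E19, with 23 calls, gave 21 to 23 without any 1 library and 22 with the replicate block, and the other comparisons had 0 throughout. Replicate numbers were not taken to pair the libraries: mean correlations of same-numbered libraries ran from -0.127 to 0.126 where there were 3 or 4 pairs, and in none of these was every pair over 0.1. The 2 pairs of WT P7 females and males had 0.327 and 0.427, too few to decide. Among single genes, Olig1 in Cux1 KO at P4 ranged from -0.23 to 0.034 with 1 library left out, turning sign without WT P4 male replicate 1, and Tnr and Gjc3 in Cux2 KO males at P4 turned to 0.074 and 0.52 with both sexes in the fit. The causes were not tested. Depth limits Opalin, Nkx6-2, Mal, Mobp and Aspa.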
